A study of Mus musculus with 38 samples.

Results

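The transcriptome of mouse fibroblasts that carried SALL4-delN12 was compared with that of fibroblasts that carried SALL4-WT after 9 days of culture, gene by gene, with 1 RNA-seq library on each side. SALL4-WT is full-length SALL4 and SALL4-delN12 lacks the 12 residues at the N-terminus that bind the NuRD complex. Both cultures began as E13.5 mouse embryonic fibroblasts (MEFs) of either sex from OG2 males and 129S4/SvJaeJ females, so that the cells of both groups hold the Oct4-GFP transgene. They were infected with a pMXs retrovirus for that single factor and grown in iCD3 medium without BMP4. The medium of both groups held CHIR99021, which activates WNT signalling, the inhibitors SGC0946 and Y27632, a compound spelled LSD1-HCL in the labels, the growth factors mLIF and bFGF, and vitamin C. The whole well was lysed as a mixture of converted and unconverted cells, so that fewer cells of a type and less RNA per cell cannot be told apart. The deposited table holds 35976 genes. After 1474 short RNAs were left out, 34502 genes remained, of which 13098 had an FPKM (sequenced fragments scaled to the length of the transcript and to the depth of the library) of at least 1 in either library and make up the comparison. The 2 libraries are among the 38 samples of the series, whose RNA table covers 17 libraries.

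SALL4 is a zinc-finger transcription factor of early embryos, and the short motif at its N-terminus recruits NuRD, a complex that joins nucleosome remodelling with histone deacetylation and is known mostly for repression. Primitive endoderm (PrE, or hypoblast) is the layer of the blastocyst that lies beneath the epiblast, and it forms parietal and visceral endoderm. Its known transcription factors include GATA6, GATA4, SOX17 and FOXA2, and its cells lay down a laminin-rich basement membrane. The comparison asks what a MEF culture expresses at day 9 when the delivered SALL4 cannot bind NuRD.

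Both libraries were of like depth. The smallest steps of the FPKM values in single-exon genes put the depth near 9509190 fragments for SALL4-WT and 9759710 for SALL4-delN12. With 1 library on each side the spread between cultures is unknown and no p-value can be given. A gene is called higher or lower here when the difference of log2(FPKM + 1), SALL4-delN12 minus SALL4-WT, is at least 1 or at most -1, that is 2-fold on that scale. Sall4 itself, a mixture of the endogenous and the delivered transcript, was at 518 FPKM with SALL4-WT and 971 FPKM with SALL4-delN12. That level shows that both cultures held the factor but does not test the deletion, which removes only a few codons. At day 1 the same libraries' counterparts stood at 549 and 809 FPKM. Sall4 was higher with SALL4-delN12 at days 1, 5, 9 and 11, by 0.56, 0.34, 0.90 and 0.56. The level of Sall4 and the deletion therefore cannot be told apart in this comparison. Of 14 listed NuRD subunits 13 were kept and none was called, with a median difference of 0.04. Chd4, the main remodelling ATPase, was at 47.9 against 44.4 FPKM. Not every subunit was that close: the differences of Chd3 and Rbbp4 were 0.85 and 0.57, within 2-fold.

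By this rule 752 genes were higher with SALL4-delN12, 5.74% of the genes kept, and 721 were lower, 5.5%. The median difference over all 13098 genes was 0.03, and 70.2% of them lay between -0.5 and 0.5. A difference of 4-fold or more was seen in 153 higher and 122 lower genes, and of 8-fold or more in 49 and 23. Of the higher genes 31 were listed at 0 with SALL4-WT, and of the lower genes 26 were listed at 0 with SALL4-delN12. Called genes were not mainly faint ones, since the median of the higher of their 2 levels was 7.43 FPKM for higher and 10.3 FPKM for lower genes, against 8.94 FPKM over all genes. The threshold cuts a continuous range: Rcn3, at 52.8 and 107 FPKM, was just inside with a difference of 1.00, while Nampt, at 19.8 and 9.41 FPKM, was just outside the lower limit at -0.9987.

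**Figure D1:**
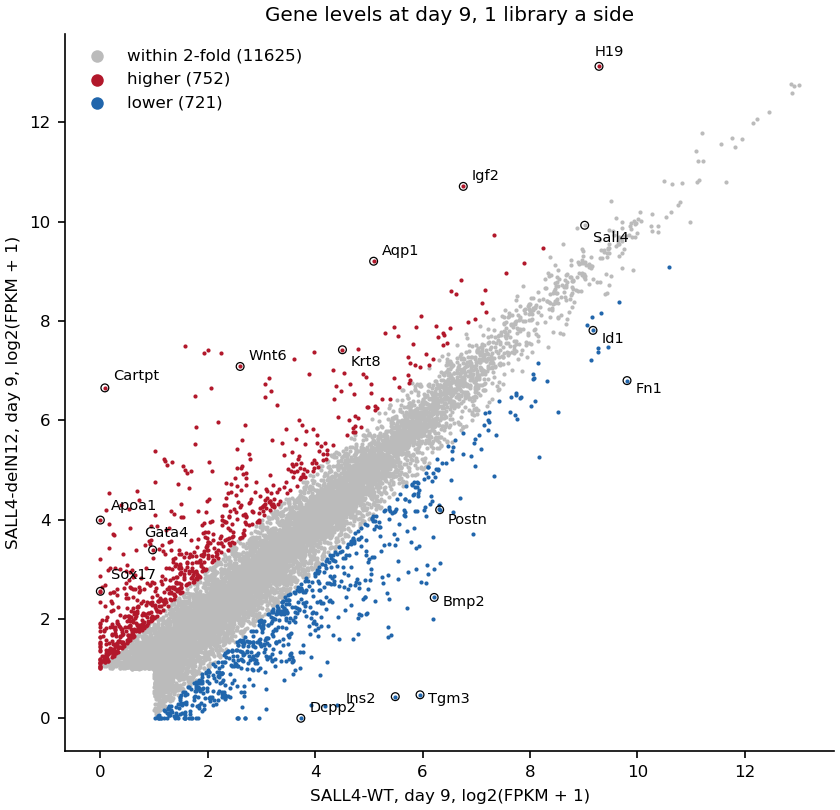
Each point is 1 of the 13098 genes kept, with its level in the SALL4-WT library on the x axis and in the SALL4-delN12 library on the y axis, both as log2(FPKM + 1); red and blue mark the 752 higher and 721 lower genes and black rings the genes named. H19 and Igf2 stand far above the diagonal at high levels, while Tgm3, Ins2 and Dcpp2 lie near 0 with SALL4-delN12.

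The largest rise among named genes was that of Cartpt, the precursor of the CART neuropeptide, listed at 0.0601 FPKM with SALL4-WT and 99.5 FPKM with SALL4-delN12. S100g, a calcium-binding protein of absorptive epithelia, went from 1.97 to 179 FPKM. These low SALL4-WT levels rest on few reads: that of S100g equals about 9 fragments, and its ratio of 90.7 has a counting interval of 47.6 to 199 (95%, exact, counting error only). Dbh, the enzyme that makes noradrenaline, rested on 1.5 fragments with SALL4-WT and 383.5 with SALL4-delN12, a ratio of 249. Its interval of 66.8 to 14816 was taken on counts rounded to whole fragments. With so few fragments the upper limit depends strongly on that rounding. Apoa1, the main protein of high-density lipoprotein and a product of visceral endoderm, was listed at 0 with SALL4-WT and stood at 14.9 FPKM with SALL4-delN12. Aqp1, a water channel, was high in both libraries and rose from 33.0 to 587 FPKM, a ratio of 17.8. The other named rises were Hba-a2, Hba-a1, Igf2os, Lrrc15, Wnt6, Krtdap, Padi2, C1qa, Bpifb4 and Psca, with differences from 3.99 for Psca to 5.43 for Hba-a2. They span transport, secreted signals, epidermal proteins and immune proteins rather than a single class.

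The deepest fall was that of Tgm3, a transglutaminase of the epidermis, from 61.0 to 0.387 FPKM. Ins2, an insulin gene, fell from 44.0 to 0.351 FPKM. Bmp2, a secreted BMP ligand, fell from 73.4 to 4.40 FPKM, a ratio of 0.0599 with a counting interval of 0.0506 to 0.0706. Ereg, a ligand of the EGF receptor, fell from 41.6 to 2.22 FPKM, and its relative Areg from 14.2 to 0.211 FPKM, the latter about 2.5 fragments against 163.5 and a ratio of 0.0149 (0.00143 to 0.0436). Lox, the enzyme that crosslinks collagen, fell from 51.4 to 3.69 FPKM. Cp, the copper-carrying ferroxidase, fell from 39.7 to 2.56 FPKM, and the kininogens Kng1 and Kng2 from 39.9 to 2.11 and from 65.6 to 5.64 FPKM. Those last are near-copies of each other, as are Prl2c2 and Prl2c3, so that reads may be split between them. Dcpp2 was at 12.3 FPKM with SALL4-WT and listed at 0 with SALL4-delN12. The remaining named falls were C2cd4a, Fabp7, Slc6a14, Prl2c2 and Bst1, with differences from -3.23 for Bst1 to -4.20 for C2cd4a.

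The most abundant transcripts of both libraries were largely mitochondrial and housekeeping ones, and they moved little. COX2 was at 8230 and 6890 FPKM, Eef1a1 at 5581 and 4734, Ftl1 at 4563 and 4026. Mitochondrially encoded genes held 11.6% of all FPKM with SALL4-WT and 9.77% with SALL4-delN12. Lgals1, among the 10 most abundant genes with SALL4-delN12 but not with SALL4-WT, was at 2355 and 3519 FPKM, within 2-fold. H19, an imprinted non-coding RNA of embryonic tissues, was at 623 FPKM with SALL4-WT and became the most abundant transcript of the SALL4-delN12 library at 8926 FPKM, or 1.91% of all FPKM against 0.134%.

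The 12 PrE genes that the study itself names were then taken up. They come from the same study and were taken up with earlier results of these data known, so that their direction is not independent evidence. Of the 12, 7 were higher, 1 was lower and 4 were within 2-fold, with a median difference of 1.76 against 0.03 for all genes. Gata4, which switches on endoderm genes, was at 0.964 FPKM with SALL4-WT and 9.48 FPKM with SALL4-delN12. Sox17, its partner in endoderm, was listed at 0 and at 4.88 FPKM. Foxa2, a forkhead factor of endoderm, was at 0.133 and 2.59 FPKM. Each of these factors was low or absent with SALL4-WT and clearly present with SALL4-delN12. Among surface and matrix genes, Pth1r, the receptor for parathyroid hormone-related peptide on parietal endoderm, was at 1.07 and 13.7 FPKM. Lama1, the laminin chain of the first basement membrane, was at 1.84 and 18.96 FPKM. Cited1, a transcriptional co-activator, went from 1.52 to 34.9 FPKM and Pitx1 from 14.6 to 55.5 FPKM. Not all of the set moved this way. Gata6, the earliest PrE factor, was at 4.23 and 3.25 FPKM, a difference of -0.30, and Dab2, an endocytic adaptor of endoderm, at 11.6 and 10.7 FPKM. Chst15 and Eva1a were within 2-fold as well, and Klf4 was lower, at 19.1 and 8.08 FPKM.

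Day 9 lay in the middle of the appearance of these genes. With SALL4-delN12, Gata4 was at 0.502, 1.91, 9.48 and 29.3 FPKM at days 1, 5, 9 and 11, while with SALL4-WT it stayed between 0.811 and 1.51 FPKM. Lama1 followed the same course with SALL4-delN12, at 1.31, 2.35, 18.96 and 50.2 FPKM. Sox17 was at 0.162 FPKM at day 5 and 16.2 FPKM at day 11. Cited1 differed earlier than these, at 16.4 against 1.58 FPKM already at day 5. Gata6 and Dab2, within 2-fold at day 9, were at 7.49 against 5.36 FPKM and 22.7 against 10.0 FPKM at day 11, and Dab2 then passed the fold with a difference of 1.11. The median difference was -0.03 on day 1 and 0.32 on day 5, over the 10 genes kept on each, and 1.76 on day 9 and 2.77 on day 11, over all 12.

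**Figure D2:**
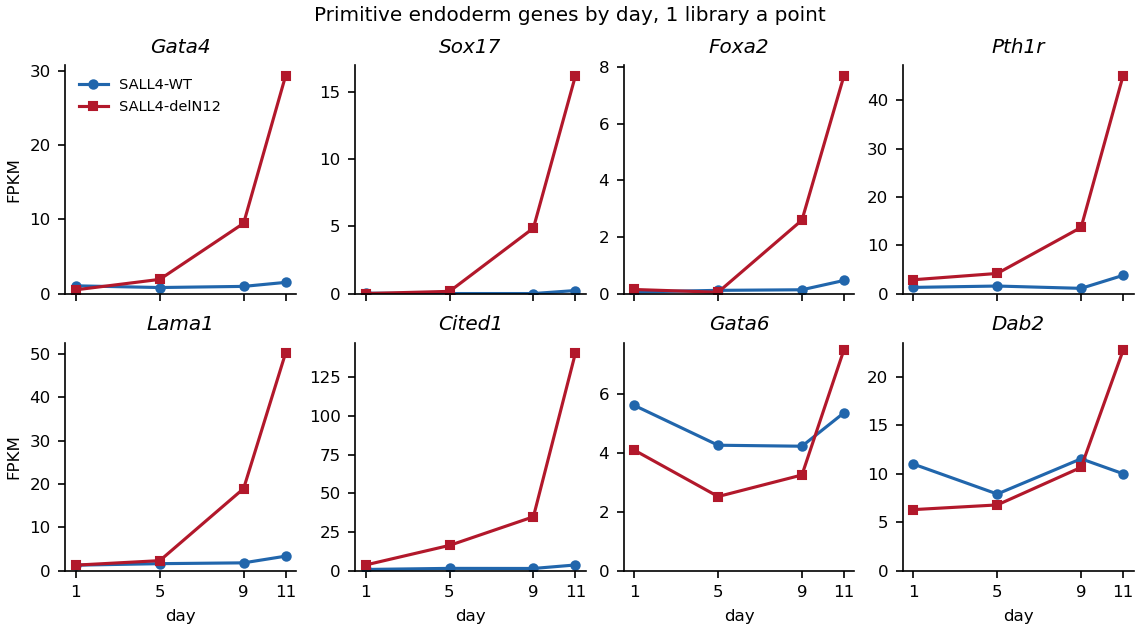
FPKM of 8 PrE genes (y axis, from 0) at days 1, 5, 9 and 11 (x axis) in the SALL4-WT libraries (blue circles) and the SALL4-delN12 libraries (red squares), 1 library a point. Gata4 climbs to 29.3 FPKM and Lama1 to 50.2 FPKM with SALL4-delN12, whereas Gata6 at day 9 is lower with SALL4-delN12 than with SALL4-WT.

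The wider endoderm programme was only partly present. Of 15 listed endoderm transcription factors 11 were kept, 4 were higher and none was lower, with a median difference of 0.24. Gata4, Sox17 and Foxa2, given above, were among them. Hnf4a, a master factor of visceral endoderm, was under the level filter at 0.0447 and 0.675 FPKM. Sox7, already at 16.3 FPKM with SALL4-WT, was at 17.6 FPKM, and Hhex was at 4.45 and 2.00 FPKM. Parietal endoderm genes split evenly, with 5 of 15 higher and 5 lower. Higher were Lama1, Pth1r, the retinol transporter Stra6 (91.4 to 389 FPKM), Krt19 and Srgn. Lower were Nid1 (316 to 110 FPKM), Col4a1 (198 to 87.4 FPKM), Col4a2 (224 to 86.4 FPKM), Thbd and Fst. Type IV collagen and nidogen, which MEFs also make, thus moved against Lama1. Visceral endoderm serum proteins were mostly under the level filter: 7 of 16 were kept and 2 were higher, Apoa1 and Apoa4 (0 to 2.37 FPKM), while Afp and Ttr stayed under 0.4 FPKM in both libraries. The list for protein uptake by yolk sac held receptors and other genes, and its receptor Lrp2 was at 0.707 and 1.69 FPKM. Its single call was Gpc3, a glypican that is not part of the receptor complex, lower at 58.5 and 24.2 FPKM. Genes of the anterior visceral endoderm gave 1 call of 4 kept, Eomes, at 0.467 and 2.61 FPKM.

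Most pluripotency genes were under the level filter. Of 20, 7 were kept and 4 were higher, Dppa5a (0.0820 to 2.96 FPKM), Lin28a (0.211 to 2.57 FPKM), Tdh and Fgf4, while Sox2 was lower (1.43 to 0.0831 FPKM). Klf5 and Klf2, which many tissues use, were within 2-fold at 13.7 and 10.2 FPKM and at 6.78 and 3.05 FPKM. Nanog was at 0.239 and 0.0666 FPKM, and Pou5f1 at 0.182 and 0.639 FPKM. Dppa3, Utf1, Nr0b1, Tcl1 and Prdm14 were listed at 0 in both. Esrrb, a factor delivered in other experiments of the series but not in these cultures, was at 1.82 and 15.5 FPKM, and it differed in the same direction at each of the 4 days, by 1.26 to 2.95. Of 11 kept trophoblast genes 4 were higher and 1 was lower. Among its factors Tfap2c went from 2.24 to 30.4 FPKM, and Cdx2 was listed at 0 with SALL4-WT and at 1.84 FPKM with SALL4-delN12. Elf5 stayed under 0.1 FPKM in both.

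Among the 40 lists, that of epithelial genes had the most calls in 1 direction. Of 20 listed 17 were kept, 11 were higher and none was lower, with a median difference of 1.66. Among simple keratins, Krt8 went from 21.8 to 170 FPKM, Krt18 from 104 to 449, Krt7 from 4.84 to 42.0 and Krt19 from 17.2 to 45.6. Among junction proteins, Cdh1, the cadherin that defines epithelia, went from 2.52 to 11.2 FPKM, Epcam from 1.48 to 10.9, Cldn4 from 43.2 to 235 and Cldn6 from 1.35 to 12.9. The splicing regulator Esrp2 was at 1.07 and 3.17 FPKM, while Spint1, Spint2 and Ovol1 had negative differences within 2-fold. Over the whole keratin family, a grouping added after the values were seen, 18 of 23 kept genes were higher and none was lower. It held stratified as well as simple keratins, such as Krt1 (0.924 to 13.5 FPKM), Krt5 (0.504 to 6.88) and Krt14 (0.581 to 9.47). Unlike the PrE list, whose median was near 0 at day 1, the epithelial list had a median difference of 1.59 on day 1, of 2.06 on day 5 and of 1.79 on day 11.

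Mesenchymal genes leaned the other way. Of 18 listed mesenchymal transcription factors 15 were kept, 8 were lower and none was higher, with a median difference of -1.16. Lower were Prrx1 (43.9 to 10.3 FPKM), Snai2 (56.9 to 17.1), Snai1 (150 to 61.4), Twist1 (122.97 to 45.9), Zeb2, Runx2, Foxc2 and Osr1, whereas Twist2 stood at 135 and 178 FPKM. Of 20 fibroblast matrix genes 9 were lower and 1 was higher, with a median difference of -0.87. At day 1, in contrast, 7 were higher and 2 lower, with a median of 0.11. Fn1, the fibronectin gene and a marker of mesenchymal cells, fell from 895 to 110 FPKM, Postn from 78.8 to 17.4, Thbs2 from 77.9 to 18.5 and Col3a1 from 73.8 to 28.0. The small proteoglycans Dcn (16.0 to 4.16 FPKM) and Lum (24.5 to 7.21) were lower too. Of the 20 genes 13 had negative and 7 positive differences: Col1a2 was at 728 and 480 FPKM, Col1a1 at 727 and 1356, Thy1 at 56.8 and 102, Pdgfra at 32.1 and 36.7, and Pdgfrb was called higher, at 13.04 and 44.7 FPKM. Markers of fibroblasts were thus present in both libraries. Of contractile and TGF-beta responsive genes 3 were higher, among them Tagln (24.2 to 106 FPKM) and Myl9 (21.4 to 94.8), and 3 were lower, Lox and the matricellular genes Cyr61 and Ctgf. HOX genes, which set position along the body axis and were added as a family after the values were seen, leaned down as well: of 32 kept 12 were lower and none was higher, with Hoxc8 at 12.6 and 1.77 FPKM.

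**Figure D3:**
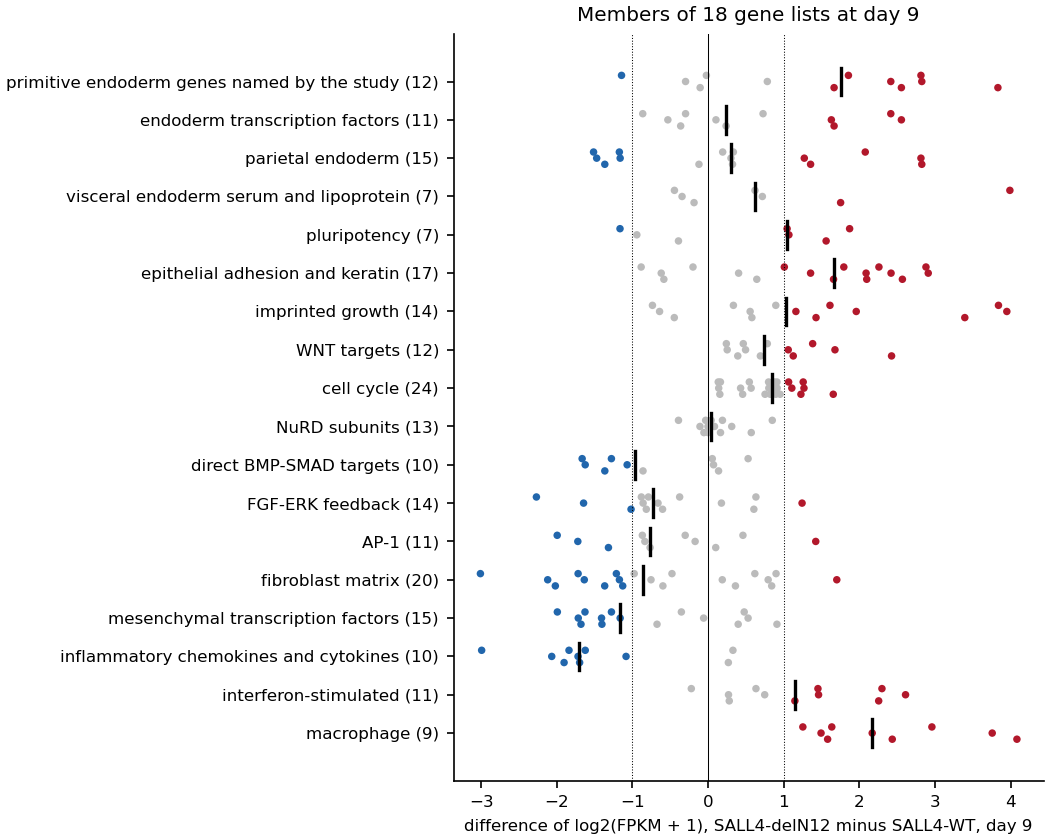
Each row is a gene list with the number of members kept in brackets, each point a member, and the x axis the difference of log2(FPKM + 1) at day 9, SALL4-delN12 minus SALL4-WT; black bars mark list medians and dotted lines the 2-fold limits. Epithelial and macrophage members lie mostly to the right of the limit at 1, inflammatory and mesenchymal members to the left of that at -1, and NuRD subunits all between the limits.

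Several signalling pathways differed among their targets and ligands. No BMP4 was added to either culture, and of 10 direct BMP-SMAD targets 5 were lower and none was higher, with a median difference of -0.97. The inhibitors of differentiation led this list, with Id1 at 577 and 223 FPKM, Id2 at 163 and 50.8, Id3 at 568 and 270 and Id4 at 6.65 and 1.48, and Smad6, a feedback inhibitor, was at 22.7 and 8.78 FPKM. Smad7, Bambi, Msx1 and Msx2 had positive differences within 2-fold. Among the ligands the fall of Bmp2 stood beside a rise of Bmp7 from 19.2 to 128 FPKM, and Bmp4 was at 25.9 and 42.5 FPKM. The secreted antagonists Grem1 (59.6 to 21.3 FPKM) and Bmper (11.02 to 0.848) were lower too. The receptors Bmpr1a and Bmpr2 were close, at 15.3 and 16.8 and at 12.7 and 10.2 FPKM. At day 11 the BMP targets' median difference was -0.23.

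FGF-ERK feedback genes, which report signalling through ERK, had a median difference of -0.73, with 3 of 14 lower and 1 higher. Dusp6, the ERK phosphatase, fell from 103 to 20.5 FPKM, Dusp5 from 19.3 to 5.50 and Dusp4 from 29.6 to 14.1, whereas the receptor Fgfr4 rose from 0.128 to 1.67 FPKM. Ligands of the EGF receptor family, added after the values were seen, gave 4 lower of 7 kept and none higher. Beside Ereg and Areg these were Hbegf (45.6 to 8.00 FPKM) and Nrg1 (5.4 to 0.452). AP-1 genes, which many of the same signals induce, had 3 lower of 11, Fos (65.7 to 15.7 FPKM), Junb (258 to 77.4) and Fosb, and 1 higher, Atf3.

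WNT targets showed the opposite lean. All 12 had a positive difference, 5 were higher and the median was 0.74. Nkd1, a feedback inhibitor, went from 22.1 to 123.1 FPKM, Apcdd1 from 82.2 to 216, Axin2 from 14.8 to 32.0, Tcf7 from 15.1 to 34.1 and Sp5 from 1.605 to 7.33. CHIR99021, which activates this pathway inside the cell, was in both media. Of 11 kept WNT ligands, a family added after the values were seen, 5 were higher and none was lower: Wnt6 (5.08 to 134 FPKM), Wnt10a (8.01 to 95.05), Wnt7b (1.01 to 26.0), Wnt7a (0.613 to 22.8) and Wnt2b (4.33 to 12.9).

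Proliferation genes leaned up. Each of 24 cell cycle genes had a positive difference, with a median of 0.85 and 6 past the fold: Mcm6 (5.04 to 18.03 FPKM), Mcm2, Mcm5, Plk1, Ccnb1 and Mcm3. Mki67 was at 2.91 and 6.18 FPKM and Pcna at 84.0 and 92.6. Among inhibitors of the cycle, Cdkn1c, an imprinted inhibitor of cyclin-dependent kinases, rose from 14.7 to 164 FPKM, Cdkn2b fell from 107 to 38.9, and Cdkn1a was at 574 and 460 FPKM.

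Imprinted growth genes were higher in 7 of 14 kept cases and lower in none, with a median difference of 1.03. Igf2, the embryonic insulin-like growth factor, rose from 107 to 1671 FPKM beside its neighbour H19. The others were Cdkn1c, Peg3 (13.2 to 54.4 FPKM), Mest (10.7 to 30.5), Zim1 (0.371 to 3.19) and Peg10 (33.7 to 76.6). Dlk1, Sgce and Ndn had negative differences within 2-fold. Of the methylation enzymes, Dnmt1 (9.13 to 19.7 FPKM) and Uhrf1 (6.11 to 14.02) were higher, and Dnmt3a was at 7.86 and 4.59 FPKM.

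Genes of immune cells moved with the comparison and bear on how mixed the cultures were. Of 10 listed macrophage markers 9 were kept and all 9 were higher. C1qa was at 2.43 and 57.1 FPKM, C1qc at 2.39 and 44.8, Csf1r, the receptor that macrophages need, at 0.803 and 7.11, and Lyz2 at 137 and 329, while Cx3cr1 stayed under 0.1 FPKM in both. Their summed level was 170 FPKM with SALL4-WT and 573 FPKM with SALL4-delN12. At day 1 it was 415 and 421 FPKM, of which the 3 C1q genes, already higher then, made up 45.2 and 125 FPKM. Alpha-globin transcripts, which red cells carry, were higher as well: Hba-a1 and Hba-a2, near-identical copies among which reads may be split, went from 3.76 to 162 and from 2.99 to 171 FPKM, but Hbb-bt and Hbb-bs, the adult beta-globin genes, were listed at 0 in both libraries. The part of macrophages or blood cells in the other differences was not tested. Inflammatory chemokines and cytokines, by contrast, were lower in 8 of 10 kept cases, with a median difference of -1.71, among them Cxcl1 (66.8 to 7.51 FPKM), Ccl2 (271 to 82.8), Ccl7 (215 to 64.5) and Cxcl12 (18.1 to 4.11). The wider family of CC and CXC chemokines, added after the values were seen, had 9 lower and 2 higher of 20 kept and a median difference of -0.63, which was 0.34 at day 11.

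Interferon-stimulated genes turned their direction with time. At day 9, 6 of 11 kept were higher and none was lower, with Isg15 at 11.96 and 62.8 FPKM, Oasl2 at 5.30 and 29.1 and Bst2 at 142 and 392. At day 1, 11 of 12 had been lower and Mx1 alone higher, with a median difference of -3.26. Day 5 had a median of -1.38, day 9 of 1.15 and day 11 of -0.03. Summed over the list, SALL4-WT stood at 1563, 237, 203 and 542 FPKM on days 1, 5, 9 and 11, and SALL4-delN12 at 294, 194, 556 and 849 FPKM.

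**Figure D4:**
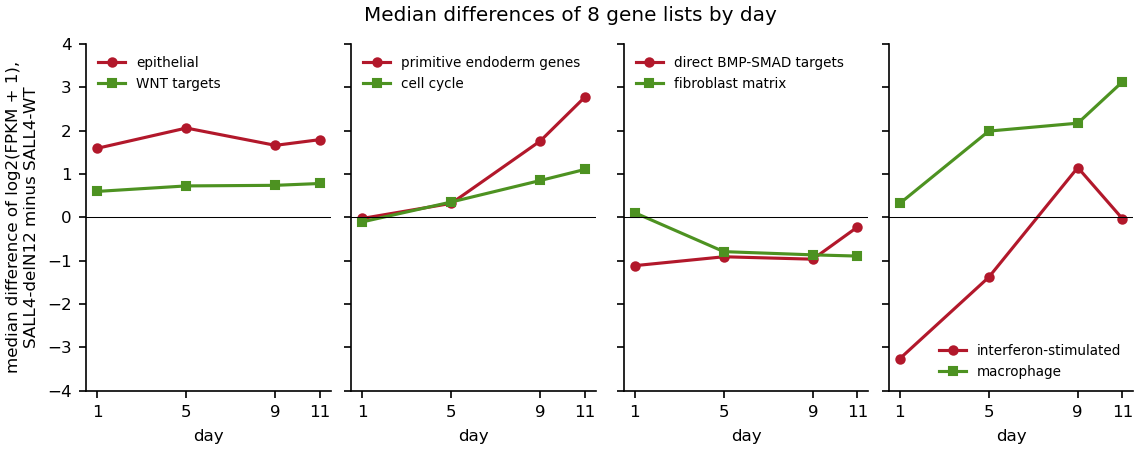
Median difference of log2(FPKM + 1), SALL4-delN12 minus SALL4-WT (y axis), of 8 gene lists at days 1, 5, 9 and 11 (x axis), each day with its own 2 libraries. Epithelial and WNT medians are positive on all 4 days, the PrE and cell cycle medians climb to 2.77 and 1.10, and the interferon median goes from -3.26 at day 1 to 1.15 at day 9.

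Other lists are given by their counts, beside the 5.74% of all genes called higher and the 5.5% called lower. None of 14 cholesterol synthesis genes was called, 1 of 12 heat shock and unfolded protein response genes was (Herpud1, 14.7 to 35.5 FPKM), and of 13 kept glycolysis and hypoxia genes Slc2a3 was higher and Egln3 lower. Of 80 kept ribosomal protein genes 1 was called, and the median difference was 0.03. No call was made among 5 kept adipocyte genes, 8 kept Nodal and activin pathway genes or the 1 germline gene kept. Of the endothelial genes Tek (0.0781 to 1.99 FPKM) and Cldn5 (0.297 to 7.02) were higher out of 8 kept. Of 4 kept neural genes 3 were higher and 1 was lower, and of 7 kept muscle genes 3 were higher and 2 were lower. Among them were Nes (7.62 to 23.0 FPKM) and Tnnt2 (0.645 to 20.1) higher, and Stmn2 (10.3 to 1.80) and Des (16.2 to 2.62) lower. Of 8 kept cartilage and bone genes Alpl (30.03 to 3.28 FPKM), Spp1 (1548 to 544) and Comp were lower. Y-linked genes and Xist, from cultures of both sexes, were within 2-fold.

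Many called genes lay side by side in the genome. Of 725 higher genes with a position in the RefSeq annotation of GRCm38.p6, 266 (36.7%) had a higher gene as the next kept gene on either side, against 10.8% of all 12382 placed genes. Of 680 lower genes 178 (26.2%) had a lower neighbour, against 10.3%. Some of these neighbours are families of like sequence, whose reads can be shared among members. The longest run lay in the epidermal differentiation complex (chr3:92080271-92573790), where 11 consecutive kept genes were lower, from Lor through 8 Sprr genes and Prr9 to Ivl. These genes encode the cornified envelope of skin. Ivl, involucrin, was at 12.7 and 1.52 FPKM and Sprr2a1 at 29.6 and 4.45 FPKM. In the type II keratin cluster of chromosome 15, in contrast, 2 runs of 7 genes each were higher, Krt80 to Krt5 and Krt2 to Krt18. On chromosome 1 a run of 8 higher genes (chr1:74713148-74951672) held Wnt6, Wnt10a, Cyp27a1, which is a sterol hydroxylase (1.90 to 32.8 FPKM), Cryba2 and Ihh. Gata4 headed a run of 5 on chromosome 14 (chr14:63198914-63509092) that ended with Tdh.

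The imprinted domain of chromosome 7 held neighbours that moved in opposite directions. H19 (chr7:142575530-142578146, minus strand), Igf2 (chr7:142650768-142666816, minus strand) and the overlapping antisense Igf2os were higher, by 3.84, 3.95 and 4.72. Ins2 (chr7:142678656-142679726, minus strand), the next gene, was lower by 5.06, as given above. On the other side of H19, Tnnt3 (0.334 to 8.95 FPKM) and Lsp1 (4.85 to 31.7 FPKM) were higher too. The labels do not say whether counting used strand, and reads of Igf2 and Igf2os cannot be told apart where they overlap.

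Open chromatin at day 9 was mapped by ATAC-seq in the same 2 conditions, with 1 peak list each of 94072 and 95940 peaks. A start-site peak was present with SALL4-delN12 at 71.7% of higher, 78.8% of lower and 90.7% of all genes, and with SALL4-WT at 70.3%, 85.1% and 91.6%. A peak within 2 kb of a start site was found in SALL4-delN12 alone for 6.62% of higher genes, and in SALL4-WT alone for 5.24%. For lower genes these shares were 1.91% and 8.24%, and for all genes 1.32% and 2.24%. The excess of peaks of SALL4-delN12 alone over those of SALL4-WT alone was 1.38 percentage points for higher genes (95% interval -1.13 to 3.88, over genes) and -6.32 points for lower genes (-8.67 to -3.98). Over all genes it was -0.92 points (-1.25 to -0.59). The interval of lower genes lay below that of all genes and the interval of higher genes overlapped it. Each covers counting over genes only, not the spread between libraries. The intervals also treat genes as independent, although neighbours such as Col4a1 and Col4a2 can share a peak, so they may be too narrow. Untreated MEFs had a peak at 75.3% of higher, 87.8% of lower and 92.7% of all start sites. Single genes went both ways. Cdh1, Epcam, Wnt10a and H19 had a start-site peak with SALL4-delN12 alone, and Tgm3, Slc6a14, Bst1, Kng2 and Col6a1 with SALL4-WT alone, in the direction of their RNA. Gata4, C1qc, Srgn and Psca, which were higher, had their peak with SALL4-WT alone. Lox, Nid1 and Col3a1, which were lower, had theirs with SALL4-delN12 alone, and Sox17 and Pitx1 had none in either. All of these are examples, not a full list. Some of their peaks scored near the lowest listed score of 50, such as Slc6a14 at 72.9 and Col3a1 at 57.6.

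H3K27ac, a mark of active promoters and enhancers, and SALL4 itself had been mapped by Cut&Tag at day 6. The H3K27ac list of SALL4-delN12 held 45599 peaks and that of SALL4-WT 19841, so a peak of SALL4-delN12 alone was common in every class: 26.3% of higher, 21.8% of lower and 10.4% of all genes. SALL4 peaks of SALL4-WT alone were found at 23.2% of higher, 23.4% of lower and 21.5% of all genes, and those of SALL4-delN12 alone at 5.93%, 6.91% and 2.97%. Peaks in 1 library alone thus had like shares in both classes, while peaks of any kind were found at fewer higher than lower genes, and at fewer of both than of all genes. With SALL4-delN12 H3K27ac peaks stood at 59.4% of higher, 74.4% of lower and 86.9% of all genes, and SALL4 peaks at 32.1%, 47.6% and 60.9%. With SALL4-WT these shares were 36.6%, 55.4% and 78.3% for H3K27ac and 49.4%, 64.1% and 79.4% for SALL4.

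**Figure D5:**
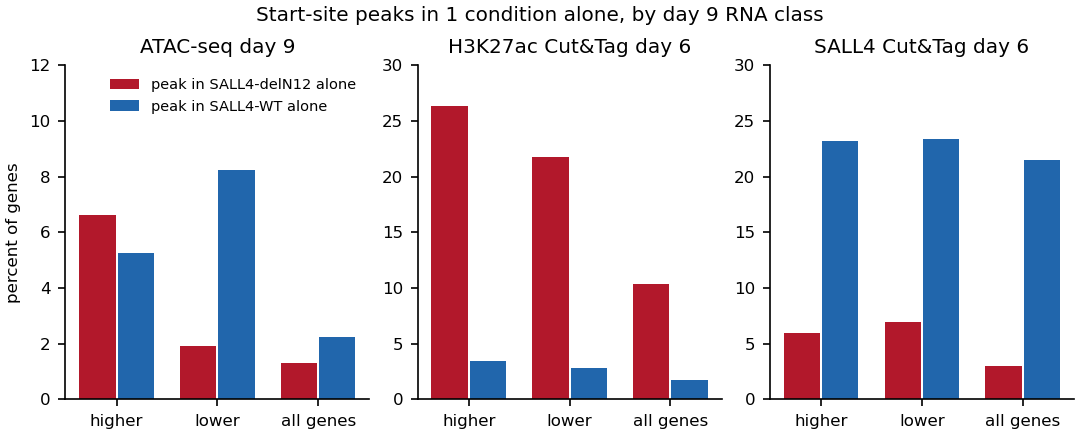
Percent of genes (y axis, from 0, with a shorter scale for ATAC-seq) whose start site has a peak within 2 kb in SALL4-delN12 alone (red) or SALL4-WT alone (blue), for 725 higher, 680 lower and 12382 genes in all. In ATAC-seq the blue bar of lower genes, 8.24%, stands above the others, while both Cut&Tag panels show like bars for higher and lower genes.

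The promoters below show what such sites look like. They come from RefSeq (GRCm38.p6), which held promoters for 1017 of the 1473 called genes, and each is the 250 bases before a start site. The first 4 are the largest rises with an ATAC-seq peak of SALL4-delN12 alone over the stretch and the largest falls with one of SALL4-WT alone, among genes that reach an FPKM of 5, have a promoter in the table and have at least 100 of these bases inside the peak, and capitals mark the bases inside the peak. Cryaa, a lens crystallin and small heat shock protein, went from 26.8 to 173 FPKM (chr17:31677681-31677930, plus strand), and Tmem140 from 7.78 to 19.4 FPKM (chr6:34862896-34863145, plus strand). Kng2 is at chr16:23029102-23029351 and Emilin2, a matrix glycoprotein that fell from 161 to 28.4 FPKM, at chr17:71311012-71311261, both on the minus strand.
Cryaa: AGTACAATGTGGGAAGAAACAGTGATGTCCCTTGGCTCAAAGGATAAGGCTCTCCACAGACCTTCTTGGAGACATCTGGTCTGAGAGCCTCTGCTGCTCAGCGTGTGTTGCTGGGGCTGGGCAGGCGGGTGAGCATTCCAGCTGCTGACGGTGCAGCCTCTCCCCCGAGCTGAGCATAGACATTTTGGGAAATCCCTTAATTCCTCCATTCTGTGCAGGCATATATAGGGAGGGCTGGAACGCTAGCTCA
Tmem140: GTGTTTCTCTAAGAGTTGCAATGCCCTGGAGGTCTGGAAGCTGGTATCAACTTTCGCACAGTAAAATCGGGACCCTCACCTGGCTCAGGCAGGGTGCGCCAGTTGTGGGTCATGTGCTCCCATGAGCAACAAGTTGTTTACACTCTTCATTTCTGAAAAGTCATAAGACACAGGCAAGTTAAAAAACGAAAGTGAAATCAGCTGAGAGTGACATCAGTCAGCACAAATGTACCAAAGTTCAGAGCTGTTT
Kng2: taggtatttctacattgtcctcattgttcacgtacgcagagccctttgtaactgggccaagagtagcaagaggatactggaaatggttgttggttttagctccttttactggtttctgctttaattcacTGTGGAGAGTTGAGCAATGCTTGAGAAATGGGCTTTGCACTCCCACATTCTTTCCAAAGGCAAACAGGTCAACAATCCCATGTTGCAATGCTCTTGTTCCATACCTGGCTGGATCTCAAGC
Emilin2: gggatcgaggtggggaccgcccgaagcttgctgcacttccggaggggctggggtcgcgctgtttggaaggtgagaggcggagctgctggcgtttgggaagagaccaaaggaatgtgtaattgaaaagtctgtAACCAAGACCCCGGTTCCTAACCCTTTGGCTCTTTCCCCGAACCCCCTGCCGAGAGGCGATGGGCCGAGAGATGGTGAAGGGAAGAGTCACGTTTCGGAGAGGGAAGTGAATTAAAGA

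Letters bound by factors of the PrE programme were counted in the 300 bases around the start sites of that table. AGATAA or its reverse TTATCT, letters known from GATA factors, stood in 8.31% of promoters of higher genes, 5.44% of lower genes, 6.22% of all genes kept and 11.2% of all promoters of the table. TGTTTAC or GTAAACA, known from forkhead factors, stood in 2.72%, 2.88%, 2.48% and 3.65%, and ACAATGG or CCATTGT, known from SOX factors, in 2.57%, 1.92%, 2.10% and 3.66%. Among higher, lower and all kept genes, the GATA and SOX shares were highest in higher genes and the forkhead share in lower genes. The forkhead and SOX shares rest on few promoters, 18 and 17 of 662 for higher genes and 18 and 12 of 625 for lower genes. For each motif the shares of higher, lower and all kept genes lay below that of the whole table. These counts were not tested. Foxa2 and Krt8 were picked as examples of list members that were higher and whose promoters hold the GATA letters. No promoter of a lower gene with these letters is shown. The 2 stretches lie at chr2:148045465-148045714 and chr15:102004343-102004592, both on the minus strand, and capitals mark the letters below. Foxa2 has several start sites in the table, and the stretch shown belongs to the one that holds these letters.
Foxa2: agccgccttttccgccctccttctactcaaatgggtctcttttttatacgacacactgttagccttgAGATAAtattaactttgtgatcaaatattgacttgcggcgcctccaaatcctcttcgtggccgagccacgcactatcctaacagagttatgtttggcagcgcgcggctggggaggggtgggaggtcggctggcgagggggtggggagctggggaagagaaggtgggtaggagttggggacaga
Krt8: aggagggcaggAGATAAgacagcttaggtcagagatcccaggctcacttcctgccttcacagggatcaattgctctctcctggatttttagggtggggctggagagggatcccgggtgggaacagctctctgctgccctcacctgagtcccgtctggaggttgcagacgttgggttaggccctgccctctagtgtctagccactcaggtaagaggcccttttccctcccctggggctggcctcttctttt

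The day 9 differences were then followed to other days, each with 2 libraries of its own. Of the 558 higher genes that were kept at day 1, 212 (38.0%) were also higher then, against 3.9% of all genes kept that day. At day 5 it was 375 of 683 (54.9%, against 4.46%) and at day 11 it was 427 of 704 (60.7%, against 6.23%). These make up 43.8%, 64.9% and 50.7% of the genes higher on those days. Of the lower genes, 221 of 591 kept (37.4%) were lower at day 1 (5.16% of all genes kept), 436 of 674 (64.7%) at day 5 (4.7%) and 450 of 683 (65.9%) at day 11 (6.02%), or 34.5%, 71.5% and 55.3% of the genes lower then. Some genes were called in the opposite direction. At day 1, 46 of the higher genes (8.24% of those kept) were lower, against 5.16% of all genes kept. Of the lower genes 18 (3.05%) were higher then, against 3.9%. At days 5 and 11 the opposite calls were 12 and 4 for higher genes and 4 and 1 for lower genes. At days 5, 9 and 11 together 259 genes were higher and 325 lower, and on all 4 days 125 and 135. Day 9 was the single day of the call for 179 higher and 134 lower genes.

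Levels over the 4 days show which culture a gene moved in. These courses share the day 9 libraries with the comparison, so they are given as levels. Ins2 was listed at 0 and then at 10.3, 44.0 and 79.9 FPKM with SALL4-WT, and it stayed between 0.351 and 2.15 FPKM with SALL4-delN12. Tgm3 was at 4.35, 30.2, 61.0 and 42.2 FPKM with SALL4-WT and at 2.55 FPKM or less with SALL4-delN12. Both were genes that came up with SALL4-WT and not with SALL4-delN12. Fn1 moved in both cultures, from 467 up to 958 FPKM with SALL4-WT and from 218 down to 87.4 FPKM with SALL4-delN12. H19 was at 450, 934, 623 and 1038 FPKM with SALL4-WT and at 1440, 9915, 8926 and 9920 FPKM with SALL4-delN12 and its difference was 3.41 at day 5 and 3.84 at day 9. Krt8 differed from day 1, at 9.79 against 141 FPKM, and Bmp2 likewise at 48.1 against 1.20 FPKM. Cartpt appeared between days 1 and 5 with SALL4-delN12, at 0, 29.2, 99.5 and 33.5 FPKM, and was at 0.263 FPKM or less with SALL4-WT. S100g was still climbing after day 9, from 179 to 877 FPKM with SALL4-delN12 and from 1.97 to 14.03 FPKM with SALL4-WT.

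In the other experiment of the table, fibroblasts that carried JGES (Jdp2, Glis1, Esrrb and Sall4) were grown for 7 days with or without BMP4, in libraries of about 1425060 and 1312310 fragments, far shallower than those of day 9. Of the genes higher with SALL4-delN12, 598 were kept there. Of these 174 (29.1%) were higher with BMP4, where 9.8% of all genes kept were, and 89 (14.9%) were lower, where 13.2% were. Of 595 kept lower genes 61 (10.3%) were lower with BMP4 and 182 (30.6%) were higher. Several lists stood side by side in opposite directions. Pluripotency genes had a median of 1.04 here over the 7 kept, but 0.0 over all 20 listed, and of -3.71 with BMP4 over 20. The fibroblast matrix median was -0.87 here and 1.83 with BMP4, the BMP target median -0.97 and 1.42, and the cell cycle median 0.85 and -1.19. The epithelial medians were 1.66 and 1.08 and those of the 12 PrE genes 1.76 and 0.84.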

How the data were processed

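RNA of each culture was sequenced as paired-end polyA libraries and processed by the authors with Trim Galore 0.6.4, HISAT2 2.2.1 against mm10 and StringTie 2.2.1, and the deposited values are FPKM per gene. The annotation and the use of strand are not given in the sources used here. ATAC-seq and Cut&Tag peaks carry the score of MACS 1.4.2 as deposited by the authors, who merged Cut&Tag replicates before peak calling and used ATAC-seq fragments under 50 bp. From these files the difference of log2(FPKM + 1) between 2 libraries was computed, for genes whose FPKM reached 1 in at least 1 of them, with short RNAs (named microRNA, snoRNA and the like) left out. The pseudocount of 1 understates the change of low genes. Since each condition has 1 library, no test was made, and a gene was called by a fold of 2. Named genes were the 15 largest rises and the 15 largest falls among genes whose FPKM reached 5 on at least 1 side, without predicted or clone-named genes, the 10 most abundant genes of each library, Sall4 and the members of 40 gene lists and 9 families. The rule for the comparison, the members and the lists were chosen with earlier results of these data known. Depth was estimated from the steps of FPKM times length in 2458 single-exon genes. Where those steps gave fragments per gene, ratios carry exact 95% intervals. These were taken on fragments rounded to whole numbers and cover counting error only. Peaks were assigned to a gene within 2 kb of a RefSeq start site (GRCm38.p6, the assembly behind mm10). Alternatives were other pseudocounts, scalings, level filters, folds, windows and peak scores. Single-cell counts, ATAC-seq of other days and RNA of factor sets other than SALL4 alone and JGES, which are not part of the comparison, were not used here. Python 3.11.15, pandas 2.3.3, scipy 1.17.1 and bedtools 2.31.1 were used, and the calling step was tested on simulated data. Values of some list members are not reported here.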

Additional observations from a re-analysis of the deposited data

Results flagged for a closer look

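Among 168 named genes past the fold at day 9, 10 differed by 2-fold or more in the opposite direction at an earlier day. Each day has 1 library a side, and the difference between days was not tested. Of these, 5 are interferon-stimulated genes. Isg15 was at a difference of -3.81 at day 1 and -1.82 at day 5 against 2.30 at day 9, Oasl2 at -4.77 and -1.59 against 2.25, Ifi44 at -3.13 and -1.51 against 1.15, and Usp18 at -4.02 and -2.06 against 1.45. Bst2 was at -1.81 at day 1 and 1.46 at day 9. The macrophage gene Adgre1 was at -1.03 at day 1 and 1.58 at day 9. The endothelial gene Cldn5 was at -1.51 and 2.63 on these days, and the imprinted gene Peg10 at -1.17 and 1.16. The collagens Col6a1 and Col6a2 went from 1.01 and 1.05 at day 1 to -1.13 and -1.21 at day 9.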

How the results depend on the processing

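With 1 library a side the spread between cultures is unknown, so a size past 2-fold says only that these libraries differ. No paired analysis was possible because each condition has 1 library at day 9 and the labels give no replicate numbers. Of the summary values recomputed under the alternatives, 232 stayed within 1.5 times for a count, 0.5 for a median or the reported interval for a peak share, and 45 moved further. The cause of the moves was not tested. Medians near 0 changed sign with all listed members and no level filter for the yolk sac uptake list, from -0.11 to 0.03, and for the Nodal and activin pathway, from -0.10 to 0.05. The count of higher genes was 1173 with a pseudocount of 0.1, 259 with a pseudocount of 5, 477 at an FPKM of at least 5, 1681 at a fold of 1.5 and 153 at a fold of 4. That of lower genes was 279 with a pseudocount of 5, 1575 at a fold of 1.5 and 122 at a fold of 4. Higher genes made up 51.1% of calls, and between 47.4% and 55.6% under the alternatives. Of 407 named genes, 24 passed the fold with a pseudocount of 0.1 and 14 with TPM rescaling, 46 fell under it with a pseudocount of 5 and 1 with median-ratio scaling, and none of the 168 past the fold changed sign under these settings.

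List medians moved with the pseudocount and the level filter. With a pseudocount of 0.1 the median was 2.54 for the PrE genes, 1.90 for pluripotency, 1.41 for muscle and 2.96 for keratins. With a pseudocount of 5 it was 0.77 for the PrE genes, 0.31 for pluripotency, 0.31 for the SALL family, -0.55 for mesenchymal transcription factors, 1.11 for epithelial genes, 1.24 for macrophage genes, 4.25 for hemoglobin, 0.32 for muscle, 0.58 for interferon-stimulated genes, -1.08 for inflammatory genes, 0.90 for keratins, -0.93 for EGF family ligands and 2.75 for C1q genes. With all listed members and no level filter it was 0.019 for visceral endoderm, 0.21 for WNT ligands, 0.20 for keratins, -0.28 for EGF family ligands, and 0.0 for pluripotency, hemoglobin, neural, muscle and chemokine genes. With a pseudocount of 0.1, 617 higher genes were also higher at day 5 and 678 at day 11. In JGES with BMP4 277 were higher and 218 lower, against 174 and 89 with a pseudocount of 1. Of lower genes 351 were lower at day 1 and 148 in JGES with BMP4. The day 9 calls themselves were more numerous at this pseudocount, with 1173 higher genes against 752. The shares of all genes called on the other days or with BMP4 are not given at this pseudocount. These counts therefore do not show whether the overlap changed relative to all genes. With peaks of a score of at least 100, peaks of SALL4-delN12 alone minus those of SALL4-WT alone came to -9.71 points for ATAC-seq at lower genes, 27.2 and 26.2 points for H3K27ac at higher and lower genes, and -12.4 and -12.5 points for SALL4. Over all genes they came to -1.50, 16.9 and -20.8 points. The SALL4 intervals of higher (-15.8 to -9.03) and lower genes (-16.4 to -8.59) then lay above that of all genes (-21.7 to -20.0). With all peaks the SALL4 values were -17.2 and -16.5 points, against -18.5 over all genes, and the intervals overlapped.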

Other observations

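Families that lie in the runs of called genes also moved together outside the lists. On chromosome 7, 4 pregnancy-specific glycoproteins, secreted proteins of the placenta, were higher in a row. Psg21 went from 0.0974 to 6.95 FPKM, Psg17 from 0.202 to 2.24 FPKM, and Psg23 and Psg27 were listed at 0 with SALL4-WT and stood at 4.82 and 1.56 FPKM with SALL4-delN12. Their differences at day 5 were between 1.23 for Psg27 and 2.57 for Psg21. Of 25 listed genes of the prolactin family, which the placenta also secretes, 2 were kept and both were lower, with a summed level of 103 and 11.8 FPKM. These 2, Prl2c2 and Prl2c3, lie in none of the runs and are near-copies among which reads may be split. On chromosome 11, 5 neighbouring CD300 receptors of myeloid cells were higher at low levels, such as Cd300lb at 0.328 and 1.85 FPKM, beside the macrophage list given above. On chromosome 5 the transcription factor gene Tbx3 rose from 10.9 to 39.9 FPKM together with transcripts on its other strand, whose reads cannot be told apart from its own if counting ignored strand. These families and genes were chosen after their values were seen, and near-identical copies may share reads.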
